A study of Mus musculus with 3 samples.

Results

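The cells described here are mononuclear phagocytes with transcripts of Cd209a, a member of the mouse DC-SIGN lectin family, and, in the implants with BMP2, of the chemokine Ccl17. A cell was taken when it held at least 500 UMIs (unique molecular identifiers, each standing for 1 captured transcript) and 300 genes, at most 15% mitochondrial UMIs, under 1% of its UMIs from Col1a1, Col1a2 and Col3a1, and no UMI of Cd3e or Cd79a. It then had to show at least 2 of the 4 gate genes Ccl17, Cd209a, Cd209e and Klrb1b, and fewer than 2 of Xcr1, Clec9a and Flt3. The members were thus chosen by measured UMIs of these genes, which are described and not tested below. This gate held 748 of the 21148 cells that passed the depth and mitochondrial filters, namely 203 of 9223, 337 of 5958 and 208 of 5967 cells in 3 libraries.

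The libraries came from ectopic tissue masses taken on day 5 after implantation in CD1 mice and dissociated whole. The first library was from Matrigel alone, a basement membrane gel. The second was from Matrigel with recombinant human BMP2 (rhBMP2), the growth factor that starts heterotopic bone in this model, in mice given pre-immune IgG systemically, and the third from Matrigel with rhBMP2 in mice given an activin A neutralizing antibody (nAct Ab) systemically. They are called Matrigel, IgG and antibody below, and values for the 3 libraries are given in that order throughout. No IgG is named for the Matrigel mice, so a difference between IgG and Matrigel may go with BMP2 or with IgG, which cannot be told apart, and the antibody library differs from Matrigel in both BMP2 and the antibody. How many mice were pooled for a library is not known here. With 1 library per group there is no replicate and no test between groups: intervals are exact 95% intervals that cover counting error only, and PCR or animal differences are outside them. The IgG library stands in 2 of the 3 comparisons and so does each of the others, so the comparisons are not independent of each other.

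Dendritic cells take up antigen in tissues, load it on MHC class II and present it to T cells. Those that carry Cd209a and Mgl2 in skin and muscle are commonly type 2 conventional cells or monocyte-derived cells, and Ccl17 and Ccl22, neighbouring genes for ligands of the receptor CCR4, draw regulatory and type 2 T cells. Interleukin-4 and interleukin-13 act on myeloid cells through STAT6, and Ccl17, Ccl22, Arg1, Mgl2 and Pdcd1lg2 are among the genes known to respond.

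Each library held 9249, 6065 and 6113 barcodes with 44252421, 46317250 and 38163880 UMIs in all. The gated cells were deeper than the library they came from, with a median of 4126, 6124 and 8044 UMIs against 3400, 4194 and 3683 in all cells kept. Summed over the gated cells this gave 919621, 2351090 and 1922238 UMIs, on which every level below rests: a level in CPM is the UMIs of a gene per 1000000 UMIs of the gated cells of that library. The libraries shared 19 barcodes (Matrigel and IgG), 16 (Matrigel and antibody) and 7 (IgG and antibody), none of them among the gated cells.

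Promoters are shown for the gate gene Ccl17 and for Pdcd1lg2, which encodes the checkpoint ligand PD-L2, because both were low in Matrigel and higher in IgG, and because STAT6 is known to bind a palindrome in such genes. These genes were chosen after their values were seen. Each line is the 250 bases before the RefSeq start site on GRCm38.p6, 5′ to 3′ on the gene's own strand, with matches to TTCNNNNGAA (the spacing STAT6 favours) or TTCNNNGAA (the spacing of other STAT factors) in capitals. Both motifs read the same on either strand, and their matches do not overlap here. The Ccl17 window lies at chr8:94810203-94810452 (plus strand) and the Pdcd1lg2 window at chr19:29410669-29410918 (plus strand).
Ccl17: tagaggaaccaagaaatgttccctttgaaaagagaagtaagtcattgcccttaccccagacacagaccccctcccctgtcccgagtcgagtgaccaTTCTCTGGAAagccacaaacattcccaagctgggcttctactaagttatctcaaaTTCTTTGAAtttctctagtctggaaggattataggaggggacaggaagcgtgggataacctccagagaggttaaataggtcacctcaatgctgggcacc
Pdcd1lg2: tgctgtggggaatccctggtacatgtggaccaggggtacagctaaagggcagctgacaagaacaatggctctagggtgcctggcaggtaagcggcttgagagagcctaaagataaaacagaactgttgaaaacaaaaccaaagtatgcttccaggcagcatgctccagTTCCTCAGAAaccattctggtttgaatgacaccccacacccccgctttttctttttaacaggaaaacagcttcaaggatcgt
The Ccl17 window held 1 TTCNNNNGAA, starting at position -154 from the start site, and 1 TTCNNNGAA, starting at -99. The Pdcd1lg2 window held 1 TTCNNNNGAA, starting at -82. Neither sequence of letters was in the same window of Ccl22, Mgl2, Cd209a, Plet1, Il4i1 or Cish, so the windows printed are those that held a match. Of 32851 promoter windows of this length in the RefSeq table, 5.85% held the first motif and 7.02% the second. A match is a description of the letters, not a site shown to be used.

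Cd209a was the gate gene found in the most gated cells of every library. A Cd209a UMI was found in 195 of 203, 309 of 337 and 183 of 208 gated cells, and the gene stood at 806, 778 and 472 CPM. Klrb1b, a lectin-like receptor of the NKR-P1 family, had a UMI in 70.0, 68.5 and 65.4% of them and Cd209e, another DC-SIGN relative, in 44.3, 68.8 and 71.6%. Ccl17 was found in 1, 70 and 47 gated cells, with 1, 1233 and 1178 UMIs or 1.09, 524 and 613 CPM. So the Matrigel cells entered the gate almost wholly through Cd209a with Klrb1b or Cd209e, and the gated cells of the 3 libraries were not chosen through the same genes. In cells that should lack Ccl17, a UMI was seen in 0, 0 and 0.318% of T cells (median 1256, 2652 and 2134 UMIs) and 0.101, 1.06 and 0.843% of mesenchymal cells (median 8659, 16989 and 19059 UMIs).

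The label was checked on markers outside the gate, beside macrophages, which are the ungated cells of the same filters with at least 2 of C1qa, C1qb and C1qc. Mgl2, a galactose-binding lectin of type 2 dendritic cells and of some macrophages, stood at 819, 2311 and 2174 CPM in the gated cells and at 266, 213 and 234 CPM in macrophages. Itgax, which encodes CD11c, stood at 112, 251 and 274 CPM against 11.1, 26.2 and 24 CPM in macrophages. Napsa, a dendritic cell protease, stood at 312, 312 and 259 CPM against 12.9, 61.8 and 40.4 CPM. The factor that defines conventional dendritic cells was low: Zbtb46 stood at 10.9, 9.78 and 11.4 CPM, against 99.3, 90.8 and 108 CPM in the Xcr1 and Clec9a type 1 dendritic cells of the same libraries. Csf1r, the receptor of macrophage colony-stimulating factor, stood at 692, 525 and 493 CPM. Ccr2, which monocytes and their descendants use to enter tissue, stood at 1224, 918 and 863 CPM. Ly6c2, the surface gene of classical monocytes, was at 0, 19.6 and 10.9 CPM. The 12 monocyte markers, Csf1r, Ccr2 and Ly6c2 among them, summed to 3582, 2543.5 and 2708 CPM in the gated cells. In macrophages they summed to 5244, 3534 and 3494 CPM, so this list was not higher in the gated cells.

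**Figure D1:**
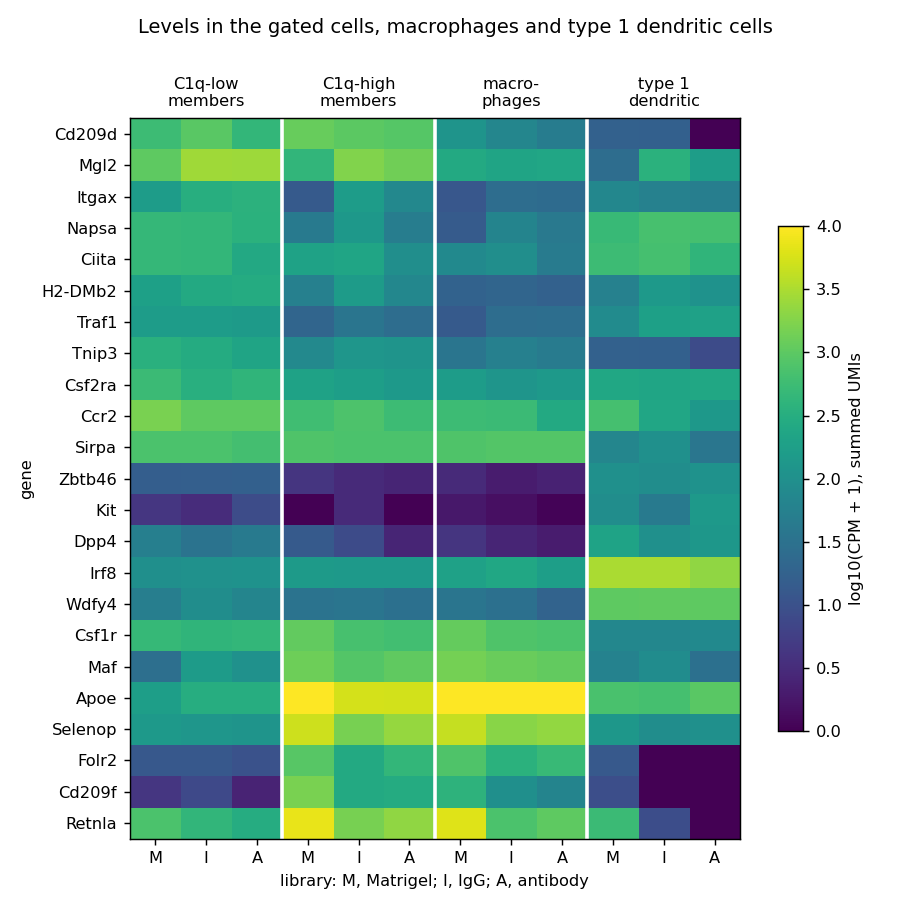
Heatmap of marker genes (rows) in the C1q-low and C1q-high gated cells, defined in the next paragraph, in macrophages and in type 1 dendritic cells, with 1 column per library (M, Matrigel; I, IgG; A, antibody). Colour is log10(CPM + 1) of summed UMIs. Apoe and Selenop are brighter in the C1q-high cells and macrophages than in the C1q-low cells, Irf8 and Wdfy4 are brightest in the type 1 cells, and Mgl2 and Cd209d are brighter in both kinds of gated cell than in the other classes.

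The gated cells were of 2 kinds when set out by complement C1q, which tissue macrophages make and most dendritic cells do not. With 0.1% of a cell's UMIs from C1qa, C1qb and C1qc as the boundary, 135, 196 and 128 cells were C1q-low and 68, 141 and 80 were C1q-high. Few cells lay near that boundary: 3, 3 and 7 cells held 0.05% to 0.1%, and 7, 15 and 4 held 0.1% to 0.2%. A further 5, 33 and 12 cells held 0.2% to 0.5%, and 56, 93 and 64 held 0.5% or more. A larger part of the C1q-high cells thus lay below 0.5% in IgG than in Matrigel or antibody. The summed macrophage markers stood at 36063, 20676 and 23139 CPM in the C1q-high cells, at 37744, 29009.6 and 28638 CPM in macrophages and at 2512, 3501 and 3099 CPM in the C1q-low cells. This sum includes the 3 C1q genes that set the boundary. The 10 pan dendritic cell markers other than the gating gene Flt3 summed to 401, 853 and 388 CPM in the C1q-high cells, 1599, 1907 and 1698 CPM in the C1q-low cells and 2529, 2644 and 2559 CPM in type 1 dendritic cells. The 12 markers of type 2 dendritic cells other than Cd209a, several of which macrophages share, did not separate the 2 kinds in 1 direction, at 4556, 4044 and 3792 CPM in the C1q-high and 3869, 5378 and 4905 CPM in the C1q-low cells, beside 3822, 2537 and 2201 CPM in macrophages. Napsa stood at 41.4, 134 and 48.9 CPM in the C1q-high and 452, 439 and 358 CPM in the C1q-low cells. Of the gate genes, Cd209e had a UMI in 80.9, 87.2 and 86.25% of C1q-high and 25.9, 55.6 and 62.5% of C1q-low cells. Klrb1b had one in 23.5, 48.2 and 37.5% of C1q-high and 93.3, 83.2 and 82.8% of C1q-low cells. The 2 kinds thus entered the gate in part through different genes. A C1qa UMI was present in 7.41, 11.2 and 11.7% of the C1q-low cells (median 4230, 6340.5 and 8879 UMIs) and in 11.2, 10.9 and 8.6% of mesenchymal cells, which should lack it. On the macrophage and pan dendritic cell lists the C1q-high cells thus lay nearer to macrophages than to type 1 dendritic cells, while the type 2 list does not settle their label. The cells are called gated cells, C1q-low or C1q-high, below.

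**Figure D2:**
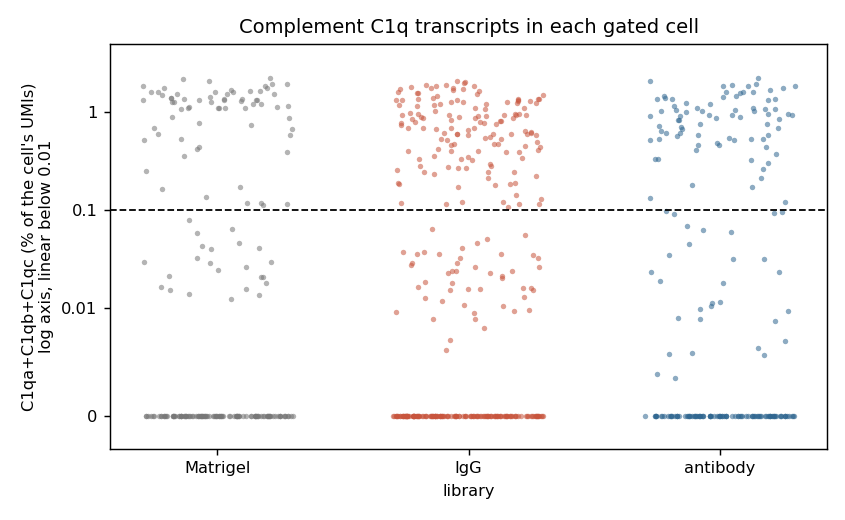
Share of each gated cell's UMIs from C1qa, C1qb and C1qc (percent; the axis is logarithmic above 0.01 and linear below), 1 point per cell, by library, with a dashed line at the boundary of 0.1%. Few points lie next to the line: 3, 3 and 7 cells lie between 0.05% and 0.1%, and 7, 15 and 4 between 0.1% and 0.2%. Between 0.2% and 0.5% lie 5, 33 and 12 cells.

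Doublets and markers of other cells were looked at beside this split. Among the cells with the highest doublet scores, which were kept, 12, 12 and 4 were gated cells, and 10, 8 and 3 of these were C1q-high. Such cells were 14.7, 5.67 and 3.75% of the C1q-high and 1.48, 2.04 and 0.781% of the C1q-low cells. Of all cells kept they were 7.38, 4.77 and 4.78%, so only the C1q-high cells of Matrigel and IgG lay above their library. The T and NK cell markers summed to 52.2, 84.6 and 110.3 CPM in the gated cells with 5, 1 and 3 of 11 at 0, and the B cell markers to 108, 39.1 and 47.3 CPM with 5, 5 and 4 of 7 at 0, where Cd3e and Cd79a are at 0 by the gate. Neutrophil markers summed to 22.8, 102 and 113 CPM, with 4, 1 and 3 of 7 at 0. Basophil and mast cell markers summed to 2.17, 45.9 and 1.56 CPM, and of the 74 UMIs of the basophil protease Mcpt8 in IgG 72 were in 1 C1q-high cell. Langerhans cell markers summed to 7.61, 66.8 and 61.9 CPM and plasmacytoid markers to 319, 420.2 and 390.2 CPM. The 7 mesenchymal markers other than the 3 collagens that the gate caps summed to 2147, 1714 and 1487 CPM, against 1352, 2196 and 1876 CPM in macrophages, and their part in the results below was not tested.

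The gated cells made up 2.2% (1.91 to 2.52) of the Matrigel cells, 5.66% (5.08 to 6.27) of the IgG cells and 3.49% (3.03 to 3.98) of the antibody cells. The IgG share was the highest and the Matrigel share the lowest, and the 3 intervals do not overlap. A share of cells depends on the other cells of the mass: without the lymphoid and collagen-high cells in the denominator it was 2.88% (2.5 to 3.3), 7.91% (7.12 to 8.76) and 4.85% (4.22 to 5.53). It also depends on depth, since a deeper cell shows more gate genes. After every cell was thinned to 1000 UMIs, which kept the 8567, 5496 and 5617 cells deep enough for it, it was 0.595% (0.444 to 0.782), 2.22% (1.85 to 2.64) and 0.801% (0.585 to 1.07), so that the order held but the intervals of Matrigel and antibody overlapped. The C1q-low cells alone made up 1.46% (1.23 to 1.73), 3.29% (2.85 to 3.77) and 2.15% (1.79 to 2.55). These shares describe the gate and carry no test.

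**Figure D3:**
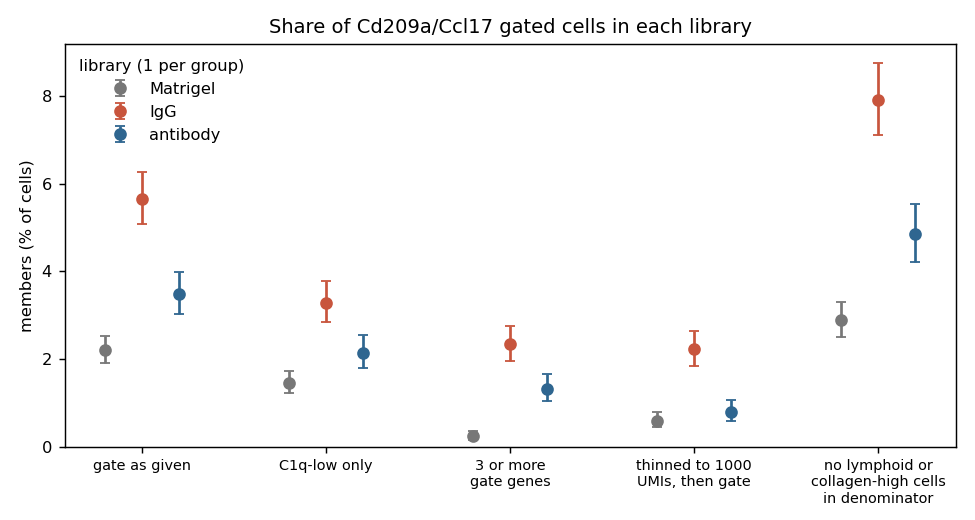
Gated cells as a percentage of cells in each library (vertical axis), with exact Clopper-Pearson 95% intervals as bars, for the gate as used, its C1q-low cells, a gate of 3 or more genes, the gate after thinning to 1000 UMIs, and the denominator without lymphoid and collagen-high cells. IgG is the highest of the 3 libraries and Matrigel the lowest in each of the 5 settings drawn. All 22 Matrigel cells with 3 or more gate genes held Cd209a, Cd209e and Klrb1b, while Ccl17 also counts toward this setting in IgG and antibody.

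Cells just outside the gate were set beside those just inside it, as a description. Cells with exactly 1 gate gene numbered 656, 480 and 394 and cells with exactly 2 numbered 181, 198 and 129. Cd209a stood at 225, 151 and 68.2 CPM outside and 729, 641 and 368 CPM inside. Mgl2 stood at 339.9, 589 and 671 CPM outside and 746, 1513 and 1374 CPM inside. C1qa stood at 2209.9, 1415 and 1501 CPM outside and 1644, 1667 and 1626 CPM inside, and the C1q-high cells were 54.7, 44.6 and 40.1% and 37, 49 and 49.6% of the 2 sets.

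IgG was compared with Matrigel to see what the gated cells of BMP2 implants express that those of Matrigel alone do not. Genes with 10 or more UMIs in either library of a comparison count as measured. A gene is called higher or lower where the ratio of CPM passed 1.5-fold with its exact conditional binomial 95% interval excluding 1. Of 9671 genes, 933 were higher (9.65%) and 882 lower (9.12%) in IgG. In the C1q-low cells the shares called were 11.0% and 7.97% of 8586 genes, and in the C1q-high cells 8.12% and 7.56% of 7933. The median log2 ratio over all measured genes was -0.01.

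Of the 15 chemokine genes measured outside the gate, 10 were higher and 2 lower, beside 9.65% and 9.12% of all genes, with a median log2 ratio of 1.75. Ccl24, a ligand of the eosinophil receptor CCR3, stood at 57.6, 1777 and 459.9 CPM and was 30.8-fold (23.5 to 41.2) higher in IgG. It was so in both kinds of gated cell, at 6.61, 1306 and 308 CPM in C1q-low and 156, 2437 and 783 CPM in C1q-high cells, and macrophages held 189, 719 and 334 CPM. Ccl22, which shares its receptor with Ccl17, had 1, 257 and 199 UMIs, or 1.09, 109 and 104 CPM, with a ratio of 101 (17.9 to 3986) that rests on 1 UMI in Matrigel. Those UMIs lay in 1, 31 and 11 cells, with 69 and 127 in the single highest cell of IgG and antibody. Ccl8, a monocyte chemoattractant, stood at 11.6, 946 and 739 CPM in C1q-low cells and 8148, 8349 and 9781 CPM in C1q-high cells, so the IgG and Matrigel levels were far apart in the C1q-low cells and close in the C1q-high cells. Macrophages held 3516, 6487 and 6526 CPM of it, and the part of their free RNA was not tested. Ccl2, Ccl7 and Cxcl16, which draw monocytes and T cells, were 3.41-fold (2.68 to 4.41), 3.03-fold (2.37 to 3.92) and 3.5-fold (2.84 to 4.34) higher. The neutrophil chemokine Cxcl2 was lower, at 197, 28.1 and 107 CPM, by 7.01-fold (5.26 to 9.44), and Ccl6 was lower as well, at 2339, 1392 and 1925 CPM. In macrophages the same list gave 7 higher and 3 lower of 15, beside 9.62% and 10.3% of the 12672 genes measured in them.

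Of 17 measured genes known to respond to interleukin-4 and STAT6, 13 were higher and 2 lower, beside 9.65% and 9.12% of all genes. The median log2 ratio was 3.51, or 2.63 with genes at 0 in 1 library set to 3 UMIs. The counts were 13 and 2 of 17 in C1q-low cells, 10 and 2 of 15 in C1q-high cells, and 9 and 3 of 16 in macrophages. Over all genes the shares in these classes were, in turn, 11.0% and 7.97%, 8.12% and 7.56%, and 9.62% and 10.3%. Arg1, the enzyme that splits arginine, stood at 5.44, 762 and 772 CPM, 140.1-fold (59.9 to 432) higher in IgG. Its UMIs were in 4, 109 and 85 cells, and macrophages held 57.8, 1192 and 1896 CPM, more than the gated cells in every library. Pdcd1lg2 stood at 10.9, 136 and 129 CPM, 12.5-fold (6.7 to 26.3) higher, with 0.76, 41.5 and 39.8 CPM in macrophages. Cdh1, which encodes E-cadherin, stood at 7.61, 169 and 152 CPM and was 22.2-fold (10.7 to 55.5) higher. The feedback genes Cish and Socs1, which dampen cytokine receptors, were 6.17-fold (3.83 to 10.6) and 4.73-fold (3.0 to 7.89) higher. Il4i1, an amino acid oxidase, was higher in the C1q-low cells, at 3.3, 155 and 117 CPM, and low in the C1q-high cells, at 3.18, 15.3 and 3.26 CPM. Against the rest of the list, Retnla stood at 3032, 867 and 905 CPM and was lower by 3.5-fold (3.3 to 3.7), and Ear2, an eosinophil-type ribonuclease, was lower at 478, 157 and 120.2 CPM. The Retnla level was 743, 421 and 297 CPM in C1q-low cells and 7444, 1493 and 2200 CPM in C1q-high cells. In macrophages it was 6457, 733 and 1028 CPM. The list was drawn up with results of these data known.

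Plet1, a membrane protein of epithelial progenitors that some dendritic cells carry, was not seen in Matrigel and had 0, 619 and 861 UMIs in 0, 34 and 38 cells, at least 80.7-fold higher in IgG against a floor of 3 UMIs per library. The 203 Matrigel cells without a Plet1 UMI allow, by a floor of 3 counts, a share of up to 1.48% of cells with a UMI. Fabp5, a fatty acid carrier, stood at 159.8, 1706 and 1665 CPM, 10.7-fold (9.05 to 12.7) higher, and macrophages were at 253, 1249 and 1231 CPM. The membrane protease Mmp14 stood at 4.35, 155 and 106 CPM, 35.6-fold (13.8 to 131) higher. Osteopontin (Spp1), a matrix protein of bone and of activated myeloid cells, stood at 12, 191 and 301 CPM, 15.9-fold (8.82 to 32.1) higher. Rnase2a, a secreted ribonuclease, Ly6a, which encodes Sca-1, and Timp1, a metalloprotease inhibitor, were 21.7-fold (12.3 to 42.2), 13.4-fold (7.78 to 25.5) and 9.55-fold (6.24 to 15.4) higher. Among the genes that were lower, C4b of the complement cascade stood at 410, 72.3 and 77.5 CPM, Lrg1 at 208, 37.4 and 46.3 CPM, F13a1, a transglutaminase of resident macrophages, at 1177, 316 and 348 CPM, and Abca9 at 144, 37.9 and 33.8 CPM. Igfbp4 and Ednrb were lower by 3.87-fold (3.03 to 4.96) and 3.53-fold (2.82 to 4.43). Neither was lower in IgG among the C1q-low cells, with Igfbp4 at 4.95, 14.6 and 13 CPM and Ednrb at 3.3, 5.1 and 1.53 CPM. Among cells with at least 3 gate genes the C4b ratio was 1.02 (0.248 to 9.0).

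**Figure D4:**
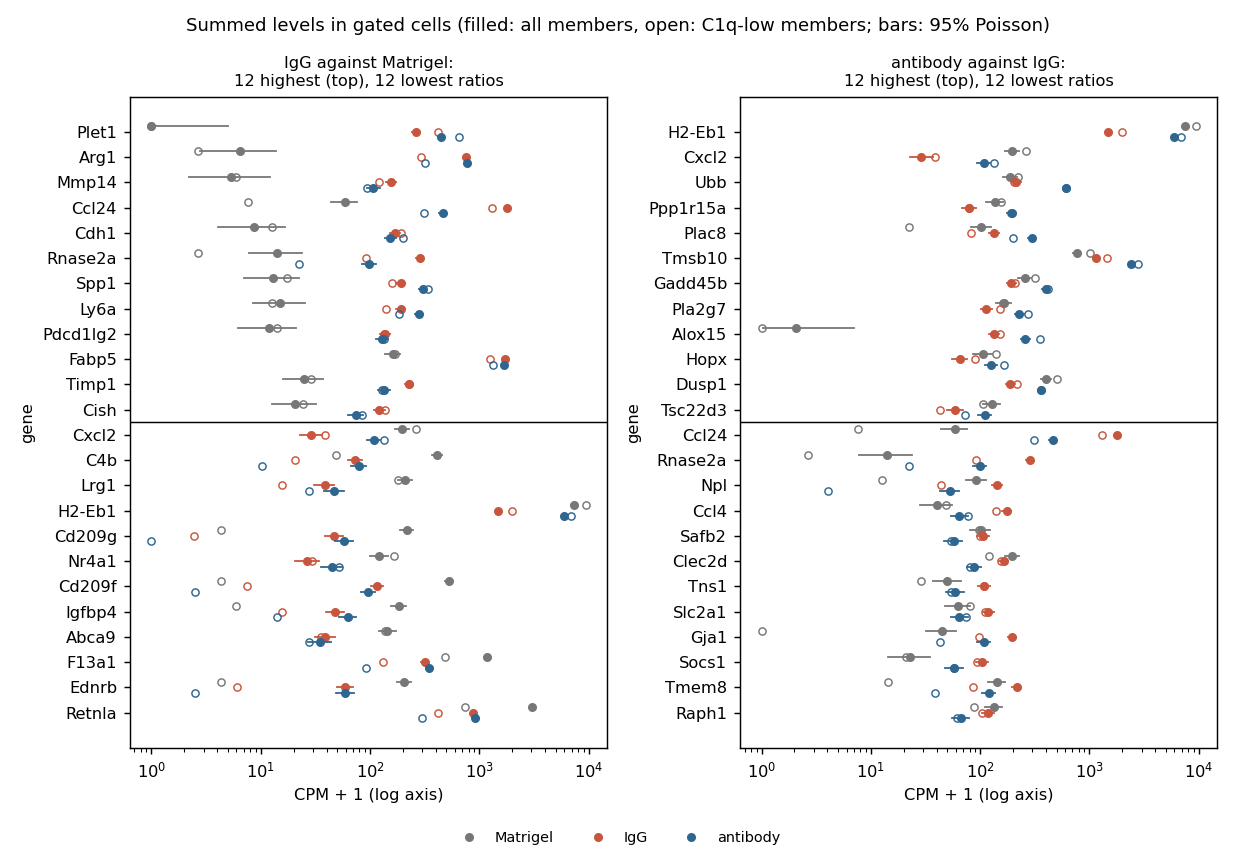
Level of the named genes (CPM + 1, log axis) in each library, for IgG against Matrigel (left) and antibody against IgG (right), with the 12 highest ratios above the line and the 12 lowest below it. Filled points are all gated cells with 95% Poisson intervals as bars, and open points are the C1q-low cells. Plet1, Arg1 and Ccl24 lie far to the right in IgG compared with Matrigel, and H2-Eb1 lies lower in IgG than in both other libraries.

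The lectins that name these cells differed in direction. Of 19 measured outside the gate 3 were higher and 7 lower, beside 9.65% and 9.12% of all genes. The C1q-low cells gave 5 higher and 3 lower of 17, beside 11.0% and 7.97%. The C1q-high cells gave 2 and 6 of 15, beside 8.12% and 7.56%. Mgl2 was 2.82-fold (2.61 to 3.05) higher in IgG, and was so in C1q-low cells (1019, 2731 and 2553 CPM) and in C1q-high cells (433, 1722 and 1365 CPM), while its level in macrophages did not pass 1.5-fold. Its close relative Clec10a was lower, at 936, 319.9 and 366 CPM, with a ratio of 0.342 (0.309 to 0.377). Clec4n, the fungal receptor Dectin-2, stood at 123, 419.8 and 544 CPM, 3.42-fold (2.81 to 4.19) higher. Cd209f and Cd209g, which resident macrophages carry, were lower by 4.61-fold (3.97 to 5.37) and 4.69-fold (3.69 to 5.98), and nearly all of their signal was in the C1q-high cells, where Cd209f stood at 1544, 267 and 293 CPM against 3.3, 6.56 and 1.53 CPM in the C1q-low cells.

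Antigen presentation genes showed 1 large difference, H2-Eb1. The beta chain of the I-E class II molecule stood at 7413, 1484 and 5983 CPM, 5.0-fold (4.8 to 5.21) lower in IgG. Its level was the lowest in the IgG library in the other classes examined too, with 2595, 895 and 1836 CPM in macrophages and 8524, 2557 and 9787 CPM in type 1 dendritic cells. The other class II genes did not follow: H2-Ab1 stood at 10294, 10528 and 8301 CPM, H2-Aa at 9239, 6632 and 7088 CPM and the invariant chain Cd74 at 23024, 21763 and 18942 CPM, none of them past 1.5-fold. CD1 mice are an outbred stock and class II genes are polymorphic, and the part of allele differences between the mice in the H2-Eb1 values was not tested. Over the list 5 of 18 measured genes were higher and 2 lower, beside 9.65% and 9.12% of all genes. The higher ones included the peptide transporters Tap1 and Tap2, at 2.65-fold (2.02 to 3.54) and 2.42-fold (1.8 to 3.33). In C1q-low cells 4 were higher and 4 lower of 18, beside 11.0% and 7.97%. In C1q-high cells 8 were higher and 1 lower of 17, beside 8.12% and 7.56%. There H2-Ab1 was at 4219, 8017 and 5179.6 CPM and Cd74 at 9584, 18152 and 13512 CPM.

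Costimulatory and checkpoint genes were higher in 7 and lower in 3 of 13 measured, beside 9.65% and 9.12% of all genes. In macrophages 6 were higher and 1 lower of 15, beside 9.62% and 10.3%. In the gated cells Cd40, which receives help from T cells, stood at 17.4, 75.7 and 77 CPM, 4.35-fold (2.61 to 7.78) higher. Cd274, which encodes PD-L1, stood at 31.5, 71.5 and 84.8 CPM, 2.27-fold (1.52 to 3.49) higher. Among cells with at least 3 gate genes its ratio was 0.596 (0.329 to 1.17), with an interval that holds 1. Cd86 did not pass 1.5-fold at 56.5, 68.1 and 70.2 CPM. Vsir, the checkpoint receptor VISTA, was lower at 331, 184 and 157 CPM. Few cells had the program of mature migratory dendritic cells: 0, 4 and 5 gated cells held at least 2 of Ccr7, Fscn1 and Ccl22. Ccr7, which leads dendritic cells to lymph nodes, had 0, 27 and 177 UMIs in 0, 3 and 6 cells.

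Interferon-stimulated genes were higher in 13 of 16 measured and lower in 0, beside 9.65% and 9.12% of all genes, with a median log2 ratio of 1.40. In macrophages 12 of 16 were higher, beside 9.62% of all genes. Gbp2, a guanylate-binding protein, stood at 38.1, 214 and 307 CPM, 5.62-fold (3.99 to 8.16) higher. Hypoxia and glycolysis genes were higher in 13 of 19, beside 9.65% of all genes, and in 15 of 19 in macrophages, beside 9.62%. In C1q-high cells 18 of 19 were higher, beside 8.12% of all genes. In C1q-low cells 2 of 19 (10.5%) were, near the 11.0% of all genes. The difference between the 2 kinds of gated cell was not tested. The glycolytic enzyme Pkm, for one, stood at 535, 1915 and 1668 CPM in C1q-high and 1027, 1512 and 1661 CPM in C1q-low cells. Proliferation genes were lower in 14 of 18 and higher in 0, beside 9.12% and 9.65% of all genes, with Mki67 at 40.2, 22.1 and 41.6 CPM. Of those measured in C1q-low cells 14 of 16 were lower, beside 7.97% of all genes. In the C1q-high cells it was 0 of 11, beside 7.56%, with a median log2 ratio of -0.20. In macrophages 17 of 20 were lower, beside 10.3%. Immediate early genes, which dissociation can also raise, were lower in 11 of 17 and higher in 0, beside 9.12% and 9.65% of all genes. The C1q-low cells gave 1 higher and 12 lower of 17, beside 11.0% and 7.97%. The C1q-high cells gave 3 higher and 2 lower of 17, beside 8.12% and 7.56%. Over all gated cells, Fosb stood at 239, 95.3 and 159 CPM and Nr4a1 at 119.6, 25.5 and 43.7 CPM.

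Genes of the activin and BMP pathways were low to moderate in these cells. Activin signals through the type 1 receptor Acvr1b, which stood at 41.3, 33.2 and 25.5 CPM, and the type 2 receptors Acvr2a and Acvr2b, at 10.9, 11.1 and 16.1 CPM and 7.61, 8.08 and 3.12 CPM. Of 17 receptors, SMADs and ligands measured 2 were higher and 1 lower (11.8% and 5.88%), near the 9.65% and 9.12% of all genes. The lower one was the TGF-beta receptor Tgfbr2, at 119.6, 60.4 and 65.5 CPM. The higher ones were Acvrl1, at 69.6, 105 and 112 CPM, and Inhba, which encodes the activin A subunit and had 0, 14 and 6 UMIs. SMAD2/3 target and feedback genes were higher in 7 of 15 and lower in 2, beside 9.65% and 9.12% of all genes. The C1q-low cells gave 5 higher and 2 lower of 14, beside 11.0% and 7.97%. The C1q-high cells gave 8 and 0 of 12, beside 8.12% and 7.56%, and macrophages 10 and 1 of 15, beside 9.62% and 10.3%. Over all gated cells Pmepa1, a feedback inhibitor, stood at 8.7, 80.4 and 39.5 CPM, 9.24-fold (4.6 to 21.7) higher. Tgfbi, a secreted matrix protein, stood at 608, 1330 and 1148 CPM, 2.19-fold (2.0 to 2.4) higher. Of the 4 BMP target genes measured Smad7 was higher (26.1, 43 and 41.6 CPM) and Id2 lower (587, 386 and 540 CPM).

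Of 23 cytokine and cytokine receptor genes measured 2 were higher (8.7%), near the 9.65% of all genes. Another 7 were lower (30.4%), beside 9.12% of all genes. In macrophages 5 were higher and 0 lower of 25, beside 9.62% and 10.3%. In the gated cells Osm, a cytokine of the interleukin-6 family, stood at 16.3, 53.6 and 48.9 CPM, 3.29-fold (1.92 to 6.04) higher. The interferon gamma receptor Ifngr1 was lower at 326, 129.7 and 146 CPM, with a ratio of 0.398 (0.338 to 0.468). Il4ra, the receptor chain that interleukin-4 and interleukin-13 share, stood at 385, 541 and 421 CPM and did not pass 1.5-fold. Among pattern recognition receptors 0 of 16 were higher and 3 lower, Tlr2 among the lower at 107, 54.9 and 58.3 CPM. Chemokine receptors were higher in 5 and lower in 1 of 8, with Ccr1 at 43.5, 148 and 166 CPM. Both lists stand beside the same 9.65% and 9.12% of all genes.

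The antibody library was compared with IgG, which differs in the activin A neutralizing antibody. Fewer genes were called than between IgG and Matrigel: of 9840 measured, 377 were higher (3.83%) and 553 lower (5.62%) with the antibody. In the C1q-low cells 4.17% and 6.6% of 8895 were called, and in the C1q-high cells 3.36% and 5.98% of 8016. In macrophages, whose list counts are given for comparison, they were 4.1% and 10.9% of 12073. The median log2 ratio over all measured genes of the gated cells was -0.07.

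Several genes that set IgG apart from Matrigel did not pass 1.5-fold between antibody and IgG. Arg1 had a ratio of 1.01 (0.945 to 1.09), Fabp5 0.976 (0.931 to 1.02), Pdcd1lg2 0.951 (0.802 to 1.13), Mgl2 0.941 (0.903 to 0.979) and Cdh1 0.9 (0.771 to 1.05), with the levels given above. Of the interleukin-4 and STAT6 list 1 of 17 was higher and 4 were lower, beside 3.83% and 5.62% of all genes. Those lower were Ccl24, Cish, Socs1 and Flt1. Ccl24 was lower by 3.86-fold (3.59 to 4.16), in C1q-low and C1q-high cells alike by the levels above, while macrophages stood at 719 CPM in IgG and 334 CPM with the antibody. Cish and Socs1 had ratios of 0.603 (0.489 to 0.741) and 0.551 (0.435 to 0.693). The gene that was higher was Chil3, a chitinase-like protein, with 0, 29 and 95 UMIs, those of the antibody library all within 10 cells. Rnase2a was lower by 2.89-fold (2.46 to 3.42), and the chemokine gene Ccl4 by 2.73-fold (2.23 to 3.38) with 39.1, 174 and 63.5 CPM. Npl, which cleaves sialic acid, and Slc2a1, a glucose transporter, were lower by 2.76-fold (2.2 to 3.49) and 1.86-fold (1.49 to 2.32). The other lower genes were Safb2, Clec2d, Tns1, Gja1, Tmem8 and Raph1, by 1.79-fold to 1.89-fold. Gja1 and Tmem8 were higher, not lower, among cells with at least 3 gate genes, at ratios of 4.32 and 2.53.

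H2-Eb1 was 4.03-fold (3.88 to 4.19) higher with the antibody, and the ratio of antibody to Matrigel was 0.807 (0.783 to 0.832), with the same limit on alleles. The IgG level was also the lowest of the 3 in the macrophages and type 1 dendritic cells above. Among the other genes named by the same rule, Cxcl2 was 3.8-fold (2.87 to 5.09) higher, Plac8, a gene of monocytes and plasmacytoid cells, 2.25-fold (1.95 to 2.59) with 101, 133 and 299 CPM, and Alox15 1.95-fold (1.69 to 2.26) with 1.09, 133 and 259 CPM. Alox15 is a lipoxygenase that interleukin-4 is known to induce, and its UMIs were in 1, 22 and 33 cells. Tmsb10, an actin-binding peptide, stood at 768, 1154 and 2395 CPM, 2.08-fold (1.98 to 2.18) higher. Ubiquitin B (Ubb) and the stress genes Ppp1r15a, Gadd45b and Dusp1 were higher by 2.86-fold (2.58 to 3.18), 2.45-fold (2.05 to 2.94), 2.07-fold (1.84 to 2.33) and 1.93-fold (1.71 to 2.19). They stood beside the immediate early list, in which 7 of 17 were higher and 0 lower, against 3.83% and 5.62% of all genes. In macrophages 10 of 17 were higher, against 4.1% of all genes. The part of tissue handling was not tested. The other higher genes were Pla2g7, Hopx and Tsc22d3, by 1.87-fold to 2.01-fold.

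Proliferation genes were higher in 14 of 19 measured and lower in 0 with the antibody, beside 3.83% and 5.62% of all genes. Their median log2 ratio was 0.93. The C1q-low cells gave 14 of 18 and a median of 1.58, the C1q-high cells 4 of 14, and macrophages 0 higher and 2 lower of 20. Over all genes 4.17% and 3.36% were higher in the C1q-low and C1q-high cells. In macrophages 4.1% of all genes were higher and 10.9% lower. Cenpf, a kinetochore protein of dividing cells, stood at 14.1, 2.98 and 20.8 CPM and Ube2c, which acts at the exit from mitosis, at 22.8, 6.81 and 41.6 CPM, so the Matrigel and antibody levels were both above the IgG level. These levels are low and rest on few UMIs, 13, 7 and 40 UMIs for Cenpf and 21, 16 and 80 UMIs for Ube2c.

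Interferon-stimulated genes were lower in 8 of 16 and higher in 0, beside 5.62% and 3.83% of all genes, with a median log2 ratio of -0.62. The C1q-low cells gave 0 higher and 7 lower of 15, beside 4.17% and 6.6%. The C1q-high cells gave 4 and 3 of 16, beside 3.36% and 5.98%. Rsad2, which encodes viperin, stood at 14.1, 45.1 and 9.36 CPM with a ratio of 0.208 (0.119 to 0.344), and Cxcl10 at 2.17, 49.3 and 9.88 CPM with a ratio of 0.2 (0.116 to 0.327). Gbp2 did not pass 1.5-fold, with a ratio of 1.44 (1.27 to 1.62). In macrophages 11 of 16 were lower, beside 10.9% of all genes. Chemokines as a list were 2 higher and 4 lower of 15 in the gated cells, beside 3.83% and 5.62% of all genes. In macrophages 10 were higher and 3 lower of 16, beside 4.1% and 10.9%, and the difference between the classes was not tested. Cd209d, a DC-SIGN relative outside the gate, stood at 757, 947 and 577 CPM with a ratio of 0.609 (0.566 to 0.655). The factor Irf4, which type 2 dendritic cells need, stood at 59.8, 79.5 and 38.5 CPM with a ratio of 0.484 (0.365 to 0.637).

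SMAD2/3 target genes bear on the antibody's target, and 0 of 15 were higher and 2 lower, beside 3.83% and 5.62% of all genes. In the C1q-low cells 2 of 13 were higher and 2 lower, beside 4.17% and 6.6%, with a median log2 ratio of 0.06. The C1q-high cells gave 0 and 3 of 12, beside 3.36% and 5.98%, with a median of -0.50. Macrophages gave 1 higher and 6 lower of 15, beside 4.1% and 10.9%. Over all gated cells, the lower ones were Pmepa1, with a ratio of 0.492 (0.372 to 0.645), and Cx3cr1, the fractalkine receptor, with 0.45 (0.29 to 0.682) and 12, 37 and 16.6 CPM. In macrophages Pmepa1 stood at 29.8, 189 and 69.2 CPM and Cx3cr1 at 67.2, 237 and 64.7 CPM. Tgfbi did not pass 1.5-fold, with a ratio of 0.863 (0.817 to 0.911), nor did Skil, with 0.87 (0.672 to 1.12). Id3, a BMP target, was higher at 25, 16.6 and 35.4 CPM, the 1 of 5 BMP targets measured that passed. Among receptors and SMADs 0 of 17 were higher and 1 lower (Smad5, 5.88% of the list). Of the cytokine list 0 of 23 were higher and 0 lower outside the gate. Costimulatory genes gave 0 higher and 1 lower of 13, lectins 1 and 2 of 19, and antigen presentation genes 1 and 3 of 17. The counts of these lists stand beside the same 3.83% and 5.62% of all genes. The class II activator Ciita was lower at 376, 349 and 207 CPM.

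**Figure D5:**
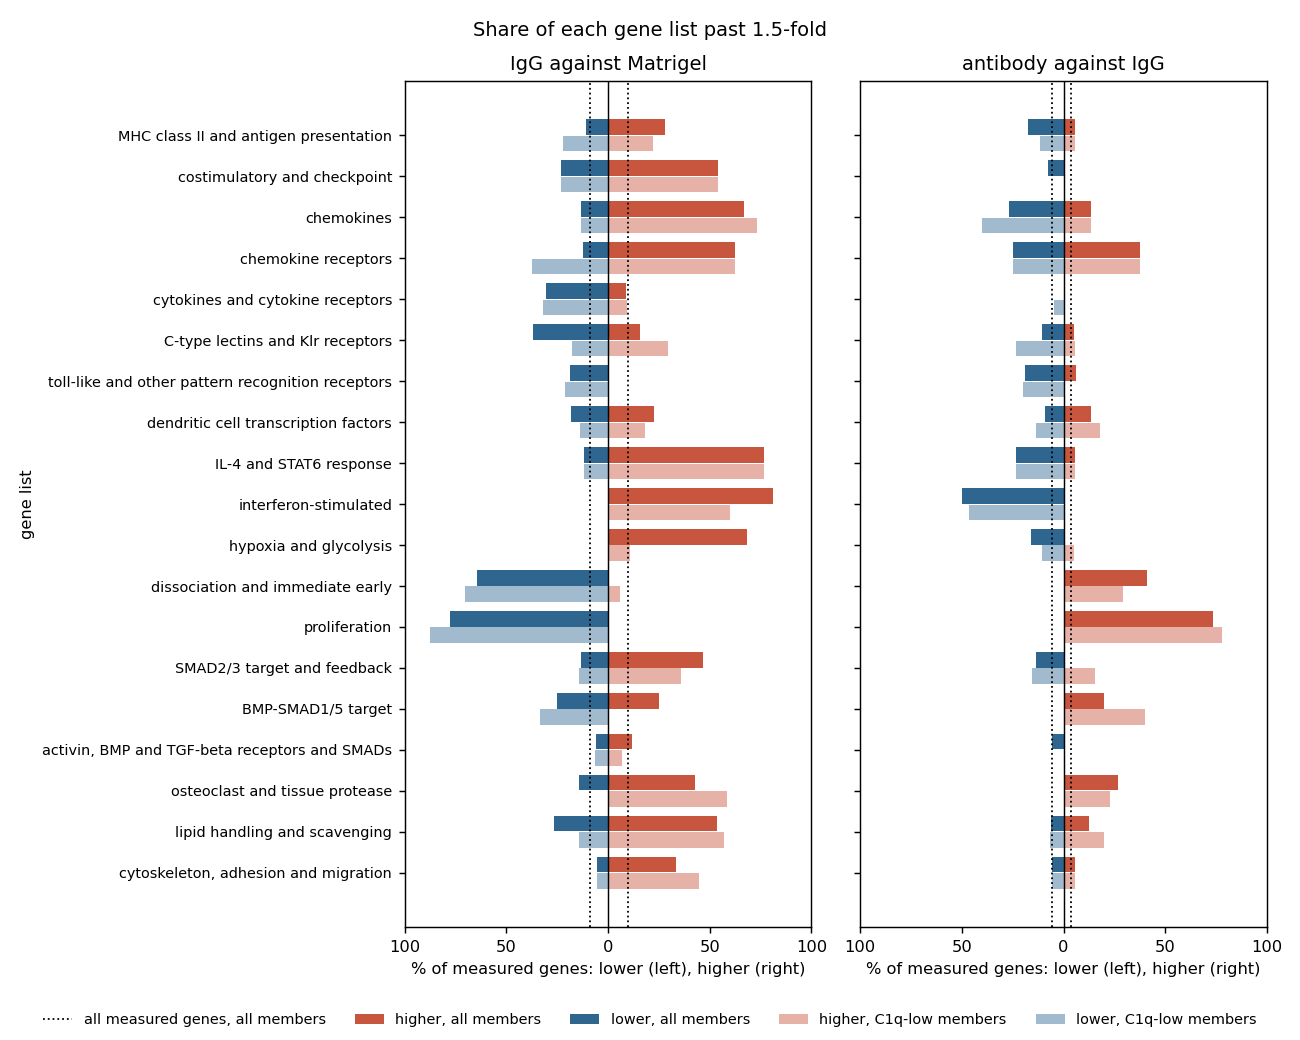
Percent of the measured genes of each list that were higher (right, red) or lower (left, blue) past 1.5-fold, in all gated cells (dark bars) and in the C1q-low cells (pale bars), for IgG against Matrigel and antibody against IgG. Dotted lines mark the percent over all measured genes. The interleukin-4 and STAT6 list (13 of 17) and the interferon list (13 of 16) reach far to the right in the first panel, and the proliferation list reaches left in the first (14 of 18) and right in the second (14 of 19).

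The antibody library was last set against Matrigel, from which it differs in BMP2 and the antibody together. Of 9302 genes 854 were higher (9.18%) and 1003 lower (10.8%). In the C1q-low cells 10.1% and 9.39% were called, and in the C1q-high cells 7.54% and 9.11%. The genes named by rule were Plet1, at least 137-fold higher against the same floor of 3 UMIs, Alox15, whose ratio of 238 (42.6 to 9429) rests on 1 UMI in Matrigel, and Arg1, Spp1 and Mmp14, which were 142-fold (60.7 to 438), 25.2-fold (14 to 50.7) and 24.4-fold (9.38 to 90.4) higher. The lower ones were Cd209f by 5.59-fold (4.71 to 6.67), C4b by 5.29-fold (4.36 to 6.44) and Lrg1 by 4.49-fold (3.47 to 5.84). Stab1, a scavenger receptor of resident macrophages, was lower by 4.99-fold (4.04 to 6.18) and the transcription factor Lyl1 by 4.3-fold (3.05 to 6.14). In the C1q-low cells alone Stab1 was at 11.6, 15.3 and 3.82 CPM, and in the C1q-high cells at 942, 250.4 and 199 CPM. Among cells with at least 3 gate genes its ratio of antibody to Matrigel was 2.19 (0.344 to 91.7).

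Within a library the gated cells varied by Ccl17. It is a gate gene, so cells with and without it did not pass the gate through the same genes. The shares beside it are therefore a description. Ccl22 was found in 25 of 70 cells with a Ccl17 UMI and 6 of 267 without in IgG, and in 8 of 47 and 3 of 161 with the antibody. Plet1 was found in 20 of 70 and 14 of 267 in IgG, and in 28 of 47 and 10 of 161 with the antibody. Arg1 ran the other way, in 10 of 70 with and 99 of 267 without Ccl17 in IgG, and in 5 of 47 and 80 of 161 with the antibody. Cells with Ccl17 were mostly C1q-low, 55 of 70 and 44 of 47, and had a median of 6491 and 12871 UMIs, against 6024 and 6802 without it. Arg1 stood at 12.7, 1417 and 1743 CPM in C1q-high and 1.65, 294 and 316 CPM in C1q-low cells. The part of depth and of the C1q kinds in these shares was not tested.

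Plet1 marked a further set, chosen after its values were seen. The elastase Mmp12 was found in 28 of 34 Plet1 cells and 112 of 303 others in IgG, and in 33 of 38 and 56 of 170 with the antibody. Alox15 was found in 11 of 34 and 11 of 303, and in 23 of 38 and 10 of 170. The Plet1 cells had a median of 10288 and 12766 UMIs, against 5729 and 6937. With every cell thinned to 1000 UMIs, Plet1 was found in 0%, 6.55% and 10.8% of gated cells, against 0, 10.1 and 18.3% at full depth. In the type 1 dendritic cells Plet1 stood at 4.05, 332 and 908 CPM and in macrophages at 0.253, 3.88 and 0.369 CPM.

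Beside the other dendritic cells, the type 1 cells with at least 2 of Xcr1, Clec9a and Flt3 (111, 35 and 16 cells), the gate fixed part of the contrast, so the values are a description. Of 7794 genes 368 (4.72%) were more than 2-fold higher in the gated cells in all 3 libraries and 186 (2.39%) lower. Cd209d stood at 757, 947 and 577 CPM against 16.2, 15.8 and 0 CPM, Clec4n at 123, 419.8 and 544 CPM against 4.05, 7.89 and 7.21 CPM and Mmp12 at 281, 1181 and 1691 CPM against 12.2, 51.3 and 0 CPM. The macrophage genes Folr2, Cd163, Gas6 and Ccl8 were also among the 10 highest, and with them Fabp5, Tnip3 and Plxdc2. Irf8, the factor type 1 cells require, stood at 115, 119.9 and 119.7 CPM against 3105, 3070.4 and 2177 CPM, and the coinhibitory receptor Btla at 5.44, 6.38 and 3.64 CPM against 749.9, 509 and 346 CPM. Itgae, Sept3, Dbn1, Tlr3, Wdfy4, Rab7b, Cyfip2 and Havcr2 were the others among the 10 lowest.

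The MHC class II-high macrophages were those with at least 1% of their UMIs from H2-Aa, H2-Ab1, H2-Eb1 and Cd74. Beside them (2237, 1006 and 732 cells) fewer genes stood apart: 129 of 10071 (1.28%) were higher and 84 (0.834%) lower past 2-fold in all 3 libraries. Cd209d stood at 757, 947 and 577 CPM against 89.5, 65.4 and 45.4 CPM, Itgax at 112, 251 and 274 CPM against 23.5, 51.2 and 61.2 CPM and Napsa at 312, 312 and 259 CPM against 29, 98.8 and 76.8 CPM. H2-DMb2, a chain of the peptide editor H2-M, stood at 141, 220.3 and 217 CPM against 36.8, 38.2 and 37.2 CPM. Cbfa2t3, Traf1, Cytip, Rin3 and Mmp12 were also among the highest 10. The 3 C1q genes, Apoe, Ms4a7, C3ar1, Abca1, Apobec1, Igfbp4 and the haemoglobin gene Hbb-bs were the 10 lowest, with Apoe at 5834, 2478 and 1927 CPM against 19849.7, 9229 and 9517 CPM. The C1q genes define the macrophage class, so their place there was fixed by it.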

How the data were processed

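Cells of ectopic masses from 3 groups of CD1 mice were sequenced with 10x 3′ v3 chemistry, per the labels' protocols. The authors deposited raw counts, whole UMIs per gene and cell barcode in filtered matrices. Cell Ranger 3.0.2 and the mm10 build are named in the submitters' processing notes. The gate, the cell classes and the gene lists were applied to these counts with Python 3.11.15, numpy 2.4.6, scipy 1.17.1, pandas 2.3.3, scanpy 1.11.5 and matplotlib 3.10.9. The members and lists were chosen with earlier results of these data known.

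UMIs were summed over the gated cells of each library and scaled to CPM. Ratios carry exact conditional binomial 95% intervals and shares exact Clopper-Pearson 95% intervals. List medians are of log2 ratios with 1 UMI added to each sum. The code was tested on simulated data. Named genes were the 12 highest and 12 lowest ratios (5 and 5 for antibody against Matrigel) among genes at 100 CPM, in 10% of gated cells and at 10% or more of the level in every other class of 100 or more cells, without gate, mitochondrial, ribosomal, Xist, Y-linked, Gm, Rik and accession-type names; for the classes the 10 highest and lowest. Other genes come from the lists. Some genes that the rule or the lists hold are not reported here. Gates for T, B, neutrophil, basophil, mesenchymal and macrophage cells were defined after the matrices were seen. Scrublet marked 2, 3 and 4 cells as doublets, too few to have worked, so none were removed. As alternatives, a gate of 3 genes, thinning to 1000 UMIs, removal of the highest doublet scores, removal of C1q-high cells, a 10% mitochondrial limit, another denominator, median-ratio scaling, a mean over cells, a minimum of 30 UMIs or none, genes at 10% or more of other classes and a 2-fold threshold were tried. Promoters are from RefSeq (GRCm38.p6). Entries were found for 8 of 12 genes looked up.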

Additional observations from a re-analysis of the deposited data

Results flagged for a closer look

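For 2 genes the difference between antibody and IgG went one way in the gated cells and the other way in macrophages of the same libraries. The difference between the 2 cell classes was not tested, with 1 library per group. Alox15 had a ratio of 1.95 (1.69 to 2.26) in the gated cells and 0.289 (0.194 to 0.423) in macrophages, where it stood at 1.08, 12.1 and 3.5 CPM. It stood at 0, 152 and 352 CPM in the C1q-low and 3.18, 105 and 60.3 CPM in the C1q-high gated cells, so it was higher with the antibody than with IgG in the C1q-low cells and not in the C1q-high cells. Ccl4 had a ratio of 0.366 (0.296 to 0.449) in the gated cells and 2.11 (1.87 to 2.39) in macrophages, where it stood at 39.4, 41.7 and 88.1 CPM. In the gated cells of IgG, 10 cells held 89.4% of the Alox15 and 83.3% of the Ccl4 UMIs, and with the antibody 67.7% and 81.1%.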

How the results depend on the processing

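No paired analysis was possible because each group has 1 library. The share of gated cells was 0.239, 2.33 and 1.32% with at least 3 of the 4 gate genes, 0.595, 2.22 and 0.801% after thinning, 1.46, 3.29 and 2.15% with the C1q-high cells left out and 2.88, 7.91 and 4.85% with the smaller denominator. IgG stayed the highest under these settings, after removal of the highest doublet scores and with the 10% mitochondrial limit. Ccl17 counts toward the gate of 3 genes and was found in 1, 70 and 47 gated cells, so the order under that setting depends in part on it. With at least 3 gate genes, which leaves 22, 139 and 79 cells, 369 genes were higher and 358 lower in IgG against Matrigel, 249 and 192 of them also called in the full gate, and 359 and 380 in antibody against Matrigel. Past 2-fold the counts were 521 and 452, 206 and 255, and 475 and 495 in the order IgG against Matrigel, antibody against IgG and antibody against Matrigel. Beside the MHC class II-high macrophages 234 genes were higher and 218 lower past 1.5-fold. Thinned to 1000 UMIs, the share of gated cells with a Ccl22 UMI was 4.76% in IgG and 2.45% with the antibody, with a Plet1 UMI 6.55% and 10.8%, and with a C1qa UMI 31.2%, 37.2% and 34.8%.

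Some ratios crossed 1. With at least 3 gate genes, those of IgG to Matrigel that crossed were Abca1 1.09, C4b 1.02, Cd274 0.596, Cxcl10 0.867, H2-DMb2 0.985, Hopx 1.04, Isg15 0.544, Klf2 1.14, Mcm5 1.33, Pclaf 1.02, Rrm2 1.12, Stab1 2.24 and Tmem8 0.578. For antibody to IgG they were Cxcl9 0.899, Gja1 4.32, Klf2 0.847 and Tmem8 2.53, and for antibody to Matrigel Ccl4 0.387, Cd274 0.605, Fabp4 0.645, H2-Ob 2.19, Isg15 0.396, Pparg 1.29, Stab1 2.19 and Top2a 1.46. With the C1q-high cells left out they were Apoe 1.82, Ifit1 0.838, Ifit2 0.735, Igfbp4 2.94 and Stab1 1.32 for IgG to Matrigel, and Abca1 1.12, Apoe 1.81 and Igfbp4 2.62 for antibody to Matrigel. Fewer cells are counted under both settings, and the cause was not tested beyond that. None of the ratios examined crossed 1 on removing the highest doublet scores, with a mean over cells or with median-ratio scaling. With 1 library per group, none of these settings stands in for a replicate, and depth limits the genes of few UMIs and the shares of cells with a UMI.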

Other observations

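Protease and osteoclast genes include Mmp14, Spp1 and Mmp12, described above. Of 14 measured, 6 were higher in IgG than in Matrigel and 2 lower, beside 9.65% and 9.12% of all genes. Of 15 measured, 4 were higher with the antibody than with IgG and 0 lower, beside 3.83% and 5.62% of all genes. Mmp12, the macrophage elastase, stood at 281, 1181 and 1691 CPM in the gated cells and 28.6, 72.7 and 251 CPM in macrophages. Ocstamp and Dcstamp, which encode proteins of cell fusion, stood at 2.17, 52.3 and 51 CPM and 63.1, 119 and 109.8 CPM. Mmp9 stood at 10.9, 2.13 and 53.6 CPM, and in the antibody library 10 cells held 100% of its UMIs. The osteoclast genes Acp5 and Ctsk were at 22.8, 14.9 and 31.7 CPM and 2.17, 2.55 and 7.28 CPM.

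Lipid genes were higher in 8 and lower in 4 of 15 in IgG against Matrigel. Lpl, lipoprotein lipase, stood at 423, 791 and 878 CPM, and Lgals3, galectin-3, at 553, 1838 and 2037 CPM. Apoe was lower over all gated cells, at 5834, 2478 and 1927 CPM, and higher in the C1q-low cells alone, at 172, 313 and 311 CPM. Among transcription factors 5 of 22 were higher and 4 lower in IgG against Matrigel, and 3 and 2 of 22 in antibody against IgG. Over all genes measured, 9.65% were higher and 9.12% lower in IgG against Matrigel, and 3.83% and 5.62% in antibody against IgG. Klf4 stood at 418, 252 and 396 CPM, Nr4a3 at 20.7, 45.5 and 72.8 CPM and Bhlhe40, which follows activation of myeloid cells, at 107, 195 and 205 CPM. Of the adhesion and cytoskeleton genes 6 of 18 were higher and 1 lower in IgG against Matrigel, and 1 and 1 of 18 in antibody against IgG.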
